A study of Mus musculus with 2 samples.

Results

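The 7 transcription factor genes *Pax6*, *Foxe3*, *Six3*, *Sox2*, *Pitx3*, *Tfap2a*, and *Meis1*, all known from the lens epithelium, were followed across cell types and across the lens cells themselves. They were chosen by name, and all 7 were found among the 32285 genes of the count tables. The cells came from lens epithelium of wild-type C57BL/6N mouse pups at postnatal day 2 (P2), with no treatment, in 2 pools of 4 to 8 pups each. Each pool was run as 1 droplet library in which every captured transcript carries a unique molecular identifier (UMI), so that the unit of every level below is the UMI. Both pools form 1 group, so the comparisons are between cell types and between lens cells of the same pools. The replicate is the pool (n = 2), not the cell.

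These factors act in a hierarchy that is well known from mouse and human eye disease. *Pax6*, a paired box and homeobox gene, is required for the lens placode to form, and *Six3*, a sine oculis homeobox gene, and *Sox2*, an HMG box gene, act with it on early lens genes, the crystallins included. *Foxe3*, a forkhead gene, keeps the epithelium in place and dividing. *Pitx3*, a bicoid-type homeobox gene, is mutated in the aphakia mouse, *Tfap2a* encodes the AP-2α factor of surface ectoderm, and *Meis1*, a TALE homeobox gene, acts upstream of *Pax6* in the lens ectoderm. The vessels that reach the young lens, which carry endothelial cells and contractile mural cells around them, come from another lineage.

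The pools held 12314 and 9425 barcodes with 93839132 and 86033032 UMIs, and medians of 6307 and 8050 UMIs per barcode. After limits on genes, UMIs, and mitochondrial RNA and removal of the 8% with the highest doublet scores, 10658 and 7836 cells remained. Only 27 barcode sequences occurred in both pools. Cells were placed by markers that include none of the 7 genes. Endothelial, mural, and macrophage cells needed a UMI of at least 3 of 8 markers of 1 list only, with the alpha crystallin genes *Cryaa* and *Cryab* under 1% of UMIs. Lens cells had 1% or more alpha crystallin UMIs and fewer than 2 markers of each list. This gave 9775 and 7076 lens cells, 323 and 212 endothelial cells, 156 and 202 mural cells, and 22 and 26 macrophages. Another 684 cells fell between the gates and were left out, as were 18 cells rich in globin RNA. Median depth was 6212 and 8070 UMIs in lens cells, 3070 and 3241 in endothelial cells, and 3297 and 3440 in mural cells. The labels matched the markers. No gated cell had 3 or more markers of retina and neurons, of pigment cells and ciliary body, of fibroblasts, or of cornea and conjunctiva, and the retinal genes *Crx* and *Pou4f2* were at 0 in all 16851 lens cells.

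The genes lie apart in the genome (mm10, GENCODE vM21). *Pax6* is at chr2:105668900-105697364 on the plus strand, *Sox2* at chr3:34650405-34652461 (plus), *Foxe3* at chr4:114925147-114926013 (minus), and *Meis1* at chr11:18879817-19018985 (minus). *Tfap2a* is at chr13:40715302-40738376 (minus), *Six3* at chr17:85613608-85629302 (plus), and *Pitx3* at chr19:46135685-46148326 (minus). Some of them share ground with a noncoding gene. *Six3* and *Six3os1* (chr17:85600651-85618398, minus) share 4791 bases on opposite strands, *Pax6* and *Pax6os1* share 1431 bases on opposite strands, and all 2057 bases of *Sox2* lie inside *Sox2ot* on the same strand. These overlaps are of whole gene spans, introns included, so they do not show shared exons. The strand setting of the counting is not given in the sources used here. How reads in shared stretches were assigned was not tested.

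Promoter windows (250 bases before to 50 after a start site, RefSeq, GRCm38.p6) were found for all 7 genes, 9 windows in all. Those of *Six3*, *Pax6* (the upstream of its start sites in the table), and *Pitx3* are shown because the first gave the one high level outside the lens and the other 2 moved in opposite directions along the fiber axis described further on. Capitals mark matches, on either strand, to TAATTA (homeodomain), TAATCC (bicoid type), TGATAC (sine oculis type), ATTGTT (SOX), GCCNNNGGC (AP-2), TGACAG (MEIS), TGTTTAC (forkhead), or CCGGAAG (ETS).
Six3 (chr17:85620584-85620883, plus): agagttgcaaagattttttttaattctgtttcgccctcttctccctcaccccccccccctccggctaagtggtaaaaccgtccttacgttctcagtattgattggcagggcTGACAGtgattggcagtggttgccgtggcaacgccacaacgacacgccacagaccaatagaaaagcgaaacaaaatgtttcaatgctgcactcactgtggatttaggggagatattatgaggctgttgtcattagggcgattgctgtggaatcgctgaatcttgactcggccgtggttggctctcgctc
Pax6 (chr2:105668646-105668945, plus): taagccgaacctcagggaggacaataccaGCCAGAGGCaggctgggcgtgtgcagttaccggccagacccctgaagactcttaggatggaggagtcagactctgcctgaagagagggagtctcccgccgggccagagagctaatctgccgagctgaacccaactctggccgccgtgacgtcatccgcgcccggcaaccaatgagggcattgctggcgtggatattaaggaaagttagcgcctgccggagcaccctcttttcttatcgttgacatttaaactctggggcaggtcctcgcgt
Pitx3 (chr19:46148276-46148575, minus): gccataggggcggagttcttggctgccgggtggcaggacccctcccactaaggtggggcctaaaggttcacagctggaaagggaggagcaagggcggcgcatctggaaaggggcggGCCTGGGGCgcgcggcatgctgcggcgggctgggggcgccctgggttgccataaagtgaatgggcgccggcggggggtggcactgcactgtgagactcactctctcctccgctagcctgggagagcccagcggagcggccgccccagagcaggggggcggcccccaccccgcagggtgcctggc
The *Six3* window held 1 match, to the MEIS letters, and the *Pax6* and *Pitx3* windows held 1 match each, to the AP-2 letters. None of these overlapped another motif. Among all 32851 windows of this length, the MEIS letters occurred in 19.2% and the AP-2 letters in 16.6%, against 3 and 2 of the 9 windows of the 7 genes. The homeodomain letters (5.29% of all windows) occurred in 1 of the 9, in *Tfap2a*, the sine oculis letters (5.46%) in *Sox2*, and the ETS letters (8.86%) in *Meis1*. The bicoid-type (7.06%), SOX (10.7%), and forkhead (3.65%) letters occurred in none of the 9. The *Foxe3* window had no match at all. These matches describe letters in the windows, not binding.

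In lens cells, 6 of the 7 genes were readily counted and *Foxe3* was scarce. Levels are UMIs of the gene per 1000000 UMIs of the class and pool (CPM). One UMI stands for one transcript end, so no length scaling was applied. *Pax6* stood at 331 and 297 CPM in the lens cells of pools 1 and 2, and *Six3* at 297 and 255 CPM. *Pax6* was the higher in both pools, though pool 2 of *Pax6* and pool 1 of *Six3* were level. *Pitx3* (124 and 110 CPM) and *Sox2* (118 and 96.7 CPM) overlapped between pools. *Tfap2a* followed with 61.7 and 65.5 CPM and *Meis1* with 36.3 and 32.8 CPM, with no overlap between the genes. *Foxe3* had 3.60 and 4.94 CPM, from 247 and 302 UMIs. Its GENCODE model spans 867 bases, of which 3 are annotated as untranslated, while the RefSeq gene spans 1625 bases. The part of this short model in the low count was not tested.

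Outside the lens cells, all of these genes but *Six3* had few UMIs. *Pax6* had 8.96 and 8.58 CPM in endothelial cells (13 and 8 UMIs) and 13.6 and 11.4 CPM in mural cells (7 and 8 UMIs). *Pitx3* had 4 and 2 UMIs in endothelial cells and 0 and 2 in mural cells. *Tfap2a* had 2 UMIs in the endothelial cells of each pool and 3 and 2 in mural cells. *Sox2* had no UMI in the endothelial cells of either pool, where 3 UMIs would have been 2.07 and 3.22 CPM, and 1 and 0 UMIs in mural cells. *Meis1* had 1 and 0 UMIs in endothelial cells and none in mural cells, and *Foxe3* had 0 and 1 in endothelial cells and 1 and 0 in mural cells. At its lens level *Foxe3* would have had only 10.1 endothelial and 5.14 mural UMIs over both pools. Its mural level was 19.5% of the lens level with a counting interval of 0.492% to 109%, so a fall there could not be told. In the 48 macrophages, 3 UMIs of the 7 genes were found in all, 1 each of *Pax6*, *Six3*, and *Meis1*, but 3 UMIs there already equal 34.6 and 27.3 CPM.

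**Figure D1:**
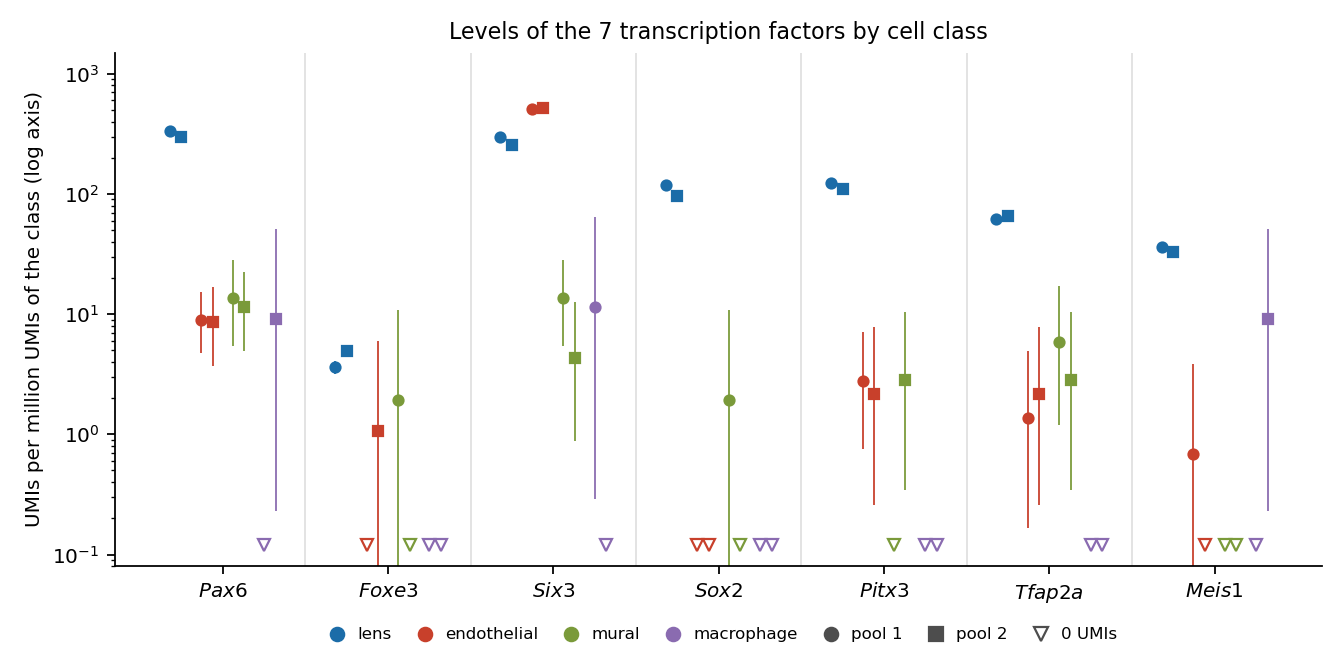
Level of each transcription factor in CPM (log axis) in lens, endothelial, mural, and macrophage cells of pool 1 (circles) and pool 2 (squares), with exact 95% Poisson intervals that cover counting error only, and triangles for 0 UMIs. For each gene but *Six3* both lens values lie above all endothelial and mural values, and for *Six3* the endothelial levels of 511 and 521 CPM lie above the lens levels of 297 and 255 CPM. For *Foxe3* the mural interval of pool 1, from 1 UMI, reaches above both lens values.

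Summed UMIs were compared with edgeR's quasi-likelihood test (pool as a block, Benjamini-Hochberg adjustment over all genes tested, threshold 0.05). The SE of each log2 fold change was worked back from the test, as its absolute value over the square root of the F statistic. Of the 7 genes, 6 passed the filter on low counts, *Foxe3* being the exception. Against endothelial cells, 5 of these 6 were higher in lens cells, where 34.1% of the 9747 genes tested were higher, and 1 was lower, where 28.9% were lower. *Pax6* was higher by a log2 fold change of 5.49 ± 0.20 (SE; adjusted p = 1.13e-21), *Pitx3* by 5.87 ± 0.31 (adjusted p = 4.93e-17), and *Tfap2a* by 5.55 ± 0.36 (adjusted p = 1.34e-14). *Sox2* was at least 85.7-fold higher in lens cells, counted against a floor of 3 UMIs over both pools, and *Meis1* was 82.6-fold higher with a counting interval of 14.8 to 3265, since it rested on 1 endothelial UMI. Both passed the test (adjusted p = 5.33e-17 and 4.17e-12), but with DESeq2 *Sox2* did not (adjusted p = 0.11).

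Against mural cells, all 6 were higher in lens cells, where 27.8% of genes were higher and 26.7% were lower. The log2 fold changes were 4.89 ± 0.23 for *Pax6*, 5.28 ± 0.27 for *Six3*, and 4.18 ± 0.39 for *Tfap2a* (edgeR, adjusted p of 1.47e-18, 1.05e-17, and 1.11e-10). *Pitx3*, with 2 mural UMIs, was 71.3-fold higher (counting interval 19.7 to 589), and *Sox2*, with 1, was 131-fold higher (23.5 to 5173). *Meis1*, with none, was at least 14.0-fold higher against 3 UMIs over both pools. All 3 passed the test, again without *Sox2* under DESeq2 (adjusted p = 0.27).

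*Six3* broke with the other factors in the endothelial cells. It counted 741 and 486 UMIs there, or 511 and 521 CPM, against 7 and 3 UMIs, or 13.6 and 4.28 CPM, in mural cells. The 2 pools of endothelial cells lay close together (516 ± 7.37 CPM, SD, n = 2) and above both pools of lens cells (276 ± 29.5 CPM). In the edgeR test of lens over endothelial cells, *Six3* had a log2 fold change of -0.59 ± 0.11 (adjusted p = 1.47e-05), the one member that was lower in lens cells. The direction held under each of the 11 alternatives run, between -0.90 and -0.51, and with DESeq2 the adjusted p was 0.08. In endothelial over mural cells *Six3* was higher by 5.87 ± 0.26 on the log2 scale (adjusted p = 1.70e-18). In that comparison 16.7% of genes were higher and 19.2% lower, and no other member passed the test, with edgeR adjusted p between 0.29 and 0.80.

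The antisense gene *Six3os1*, a noncoding transcript, followed the same pattern. It had 236 and 208 CPM in lens cells, 548 and 508 CPM in endothelial cells (796 and 474 UMIs), and 11.7 and 5.71 CPM in mural cells (6 and 4 UMIs). It was lower in lens than in endothelial cells by edgeR (log2 fold change -0.94 ± 0.10, adjusted p = 1.20e-09) and higher in endothelial than in mural cells (5.91 ± 0.25, adjusted p = 3.31e-19). *Sox2ot*, which contains *Sox2*, stayed with the lens. It had 310 and 286 CPM in lens cells, 12.4 and 6.43 CPM in endothelial cells, and 1.94 and 5.71 CPM in mural cells. *Pax6os1* had 2.23 CPM in the lens cells of each pool and no UMI in endothelial or mural cells.

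Endothelial *Six3* was then set against lens RNA that is free in the droplets. If free lens RNA were the one source, and reached every droplet with its genes in the proportions of the lens cells, each lens gene would show about the same percent of its lens level in other cells. This was read from 16 lens genes with at least 1000 UMIs in lens cells of each pool, crystallins, lens membrane and filament genes, and epithelial genes among them. *Cryaa* and *Cryab* are among the 16, and the gates of vessel cells kept these 2 under 1% of UMIs. The gates thus left out cells richest in alpha crystallin RNA, and the percents were not worked out without that limit. In endothelial cells the median of the 16 was 2.54% and 2.71% of the lens level in pools 1 and 2. The 16 were not alike. The lowest was *Folr1* with 1.07% and 0.714% (7 and 3 UMIs), and the highest was *Cryba4* with 6.73% in pool 1 (79 UMIs) and *Bfsp1*, a beaded filament gene, with 18.2% in pool 2, from 3 UMIs. *Cryba4* stood at 8.18% in pool 2 (48 UMIs). *Pax6* stood at 2.71% and 2.89% and *Pitx3* at 2.22% and 1.95%, within the range of the 16. *Six3* stood at 172% and 204%, or 186% over both pools with an SD of 22.9 between them, 17.4 times the highest of the 16 lens genes over both pools, *Bfsp1* with 5 UMIs. At the median share, free lens RNA would have given 10.9 and 6.43 *Six3* UMIs, against the 741 and 486 counted.

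Mural cells of the same droplet runs had little *Six3*. Their 16 lens genes had medians of 2.70% and 3.10% of the lens level. *Six3* stood at 4.59% and 1.68% there, from 7 and 3 UMIs, where the median share would have given 4.12 and 5.54. Median alpha crystallin content was 0.181% and 0.150% of UMIs in endothelial cells and 0.317% and 0.318% in mural cells. The alpha crystallin genes differed in this, since *Cryab* stood at 2.08% and 1.81% of its lens level in endothelial cells and at 6.04% and 5.99% in mural cells, while *Cryaa* stood at 2.26% and 2.43% in endothelial cells and at 2.43% and 2.74% in mural cells.

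**Figure D2:**
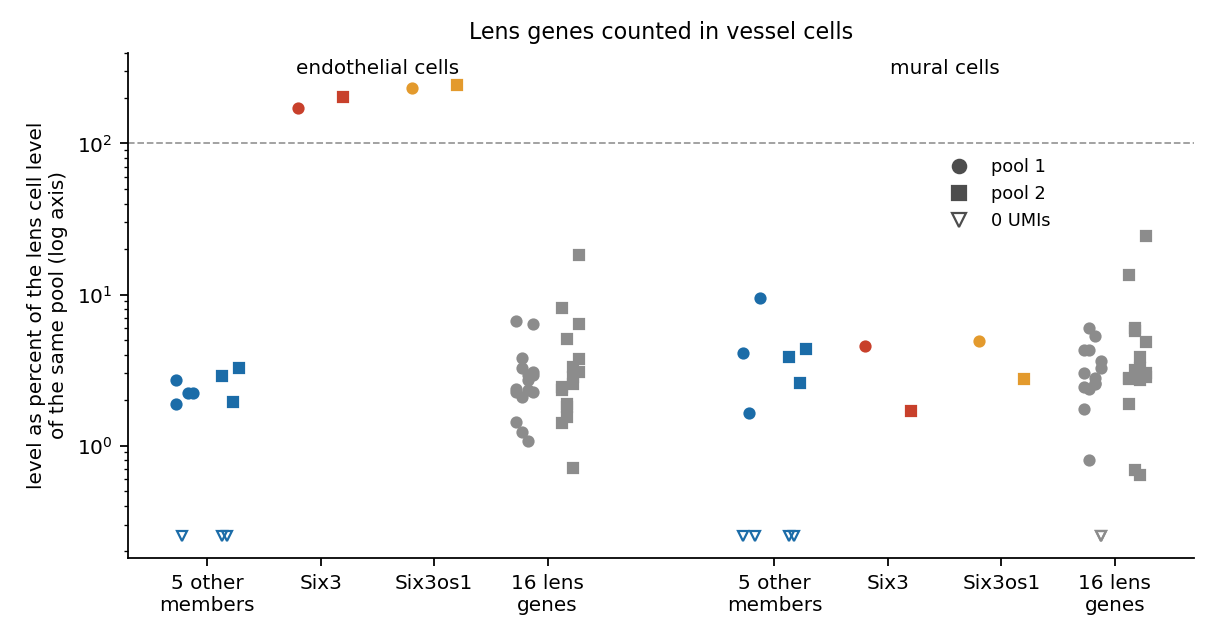
Level in endothelial cells (left) and mural cells (right) as percent of the lens cell level of the same pool (log axis, circles for pool 1, squares for pool 2, triangles for 0 UMIs) for *Pax6*, *Sox2*, *Pitx3*, *Tfap2a*, and *Meis1*, for *Six3*, for *Six3os1*, and for 16 lens genes. Only *Six3* (172% and 204%) and *Six3os1* in endothelial cells lie above the dashed line at 100%, and *Six3* in mural cells (4.59% and 1.68%) lies among the lens genes.

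The endothelial *Six3* signal was spread over most cells of the class. At least 1 UMI was found in 71.8% and 72.6% of endothelial cells, against 4.49% and 1.49% of mural cells at like depth. In pools 1 and 2, 82 and 54 endothelial cells had 1 *Six3* UMI, 47 and 30 had 2, and 103 and 70 had 3 or more, with a maximum of 14 and 22. With every cell thinned to 2000 UMIs, which left out 85 and 34 endothelial cells and 136 and 128 lens cells, the share with *Six3* was 60.9% and 58.4% in endothelial cells, 43.8% and 39.4% in lens cells, and 4.41% and 1.60% in mural cells. The endothelial share was thus the higher in each of the 2 pools. Its exact 95% binomial interval, which covers the sampling of cells within a pool only, was 54.4% to 67.2% in pool 1 and 50.8% to 65.8% in pool 2. *Six3os1* was present in 81.0% and 82.5% of the endothelial cells with *Six3* and in 60.4% and 70.7% of those without, a description over cells whose depth also differs.

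Within the endothelial class, *Six3* did not rise with the share of alpha crystallin UMIs. The cells of each pool were divided into tertiles of equal cell number by their share of alpha crystallin UMIs, a split that by its making orders *Cryaa*. From the lowest to the highest tertile, *Six3* had 525, 528, and 433 CPM in pool 1 and 552, 490, and 502 CPM in pool 2, while *Cryaa* had 497, 840, and 1967 CPM in pool 1 and 386, 733, and 1717 CPM in pool 2. *Cldn5*, a tight junction gene of endothelium, stayed between 3070 and 3585 CPM over the 6 sums. The tertiles also differed in depth, with medians of 4360, 3685, and 1920 UMIs in pool 1 and 4749, 3695, and 2364 UMIs in pool 2.

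**Figure D3:**
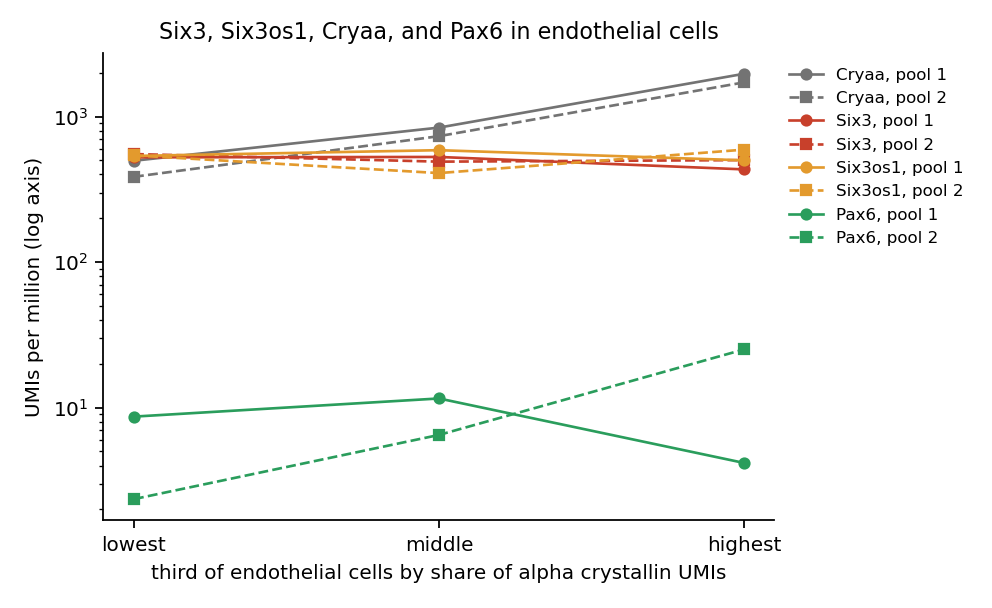
Levels in CPM (log axis) of *Six3*, *Six3os1*, *Cryaa*, and *Pax6* in tertiles of endothelial cells, ordered by their share of alpha crystallin UMIs, in pool 1 (solid lines) and pool 2 (dashed lines). *Cryaa*, which set the order, rises from the lowest to the highest tertile in both pools, *Six3* lies between 433 and 552 CPM throughout, and each *Pax6* point rests on 6 UMIs or fewer.

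The 8 endothelial markers, which the gates themselves kept low in lens cells, summed to 60.4 CPM in the lens cells of both pools, of which *Egfl7* gave 57.2 CPM on average, against 9359 to 9979 CPM in endothelial cells and 463 to 464 CPM in mural cells. In mural cells *Pecam1* and *Cdh5* were at 0, while *Esam* had 278 CPM and *Emcn* 132 CPM on average. Without any upper limit on alpha crystallins, with a limit of 0.2%, with 2 or 4 markers in place of 3, or without doublet removal, endothelial *Six3* stayed above its lens level in the pooled sums, as it did with all barcodes that passed a gate.

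At 2000 UMIs per cell, lens cells had UMIs of 1.55 and 1.40 of the 7 genes on average, against 0.65 and 0.61 in endothelial cells and 0.09 and 0.05 in mural cells. At least 3 of the 7 were seen in 18.2% and 13.6% of lens cells and in none of the endothelial or mural cells. The shares of lens cells with a UMI at this depth, averaged over pools, were 45.6 ± 3.65% for *Pax6*, 41.6 ± 3.11% for *Six3*, 20.6 ± 1.49% for *Pitx3*, 19.3 ± 2.31% for *Sox2*, 12.6 ± 0.21% for *Tfap2a*, 7.03 ± 0.45% for *Meis1*, and 0.91 ± 0.14% for *Foxe3* (SD, n = 2). *Pax6* had the higher share than *Six3* in both pools, and *Pitx3* than *Sox2*, though the SDs of each pair overlapped. In endothelial cells the shares other than that of *Six3* were 1.61 ± 0.69% for *Pax6* and under 1% for each of the others.

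Lens cells are not uniform, and the factors were followed along 3 gradients, each made by ranking the lens cells of a pool by the share of their UMIs in a gene list and cutting them into quintiles. No list contains any of the 7 genes, and each list's own genes were left out of the tests. The first list holds 18 fiber genes, the beta and gamma crystallins and lens membrane and filament genes that rise as epithelial cells turn into fibers. The median share of these genes was 1.46% and 1.34% in the lowest quintile and 7.72% and 7.79% in the highest. Of the 7 factors, 6 were lower in the highest than in the lowest quintile, where 34.5% of 13064 genes were lower, and 1 was higher, where 35.2% were higher (edgeR).

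*Tfap2a* had the steepest gradient of the well counted factors. From the lowest to the highest fiber quintile it had 97.6, 82.5, 70.2, 56.1, and 22.2 CPM in pool 1 and 100, 85.4, 76.1, 61.1, and 21.3 CPM in pool 2, a log2 fold change of -1.63 ± 0.07 (edgeR, adjusted p = 2.06e-21). *Pax6* had 443, 403, 364, 341, and 184 CPM in pool 1 and 388, 356, 330, 300, and 164 CPM in pool 2 (-0.71 ± 0.04, adjusted p = 3.33e-18). Both fell at every step in both pools. *Six3* likewise fell with each quintile, with 402, 351, 320, 290, and 182 CPM in pool 1 and 318, 303, 280, 246, and 162 CPM in pool 2 (-0.52 ± 0.04, adjusted p = 9.63e-14).

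*Sox2*, *Meis1*, and *Foxe3* were lowest in the highest fiber quintile in both pools, with different courses before it. *Sox2* lay between 134 and 146 CPM in the lower 4 quintiles of pool 1 and between 111 and 113 CPM in those of pool 2, and had 61.3 and 54.2 CPM in the highest (-0.54 ± 0.05, adjusted p = 3.51e-11). *Meis1* had 20.0 and 16.01 CPM in the highest quintile, 38.4 and 37.5 CPM in the one before it, and 46.2 and 40.6 CPM in the lowest (-0.72 ± 0.08, adjusted p = 1.19e-09). *Foxe3* had 1.173 and 1.303 CPM in the highest quintile and 4.35 and 5.43 CPM in the lowest, with more in the middle quintile (5.01 and 7.501 CPM) than in either end (-1.43 ± 0.23, adjusted p = 1.93e-06).

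*Pitx3* went the other way. It had 104, 117, 125, 141, and 132 CPM in pool 1 and 91.4, 96.2, 111, 124, and 124 CPM in pool 2 from the lowest to the highest quintile. Its log2 fold change was 0.93 ± 0.05 (adjusted p = 2.59e-18), and 0.54 under scaling by library size alone. In that scaling the median of all genes was -0.40, against 0.00 with TMM factors, and the calls were 2233 higher and 7387 lower, against 4602 higher and 4501 lower. None of the 7 factors changed direction in it, and the log2 fold changes of *Pax6* (-1.11), *Six3* (-0.92), *Sox2* (-0.94), and *Meis1* (-1.12) were over 1.5 times as large. A level in CPM is a share of all UMIs, those of the crystallins included. The highest quintile was also deeper, with medians of 9657 and 11585 UMIs against 6316 and 8321 in the lowest. With lens cells thinned to 3000 UMIs, all 7 kept their direction and call.

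The partners did not simply copy the factors. *Six3os1* had 194 and 175 CPM in the highest fiber quintile and 275 and 233 CPM in the lowest, a log2 fold change of 0.08 ± 0.04 that missed the threshold (edgeR, adjusted p = 0.06) and became -0.31 with scaling by library size alone. *Sox2ot* had 128 and 127 CPM in the highest quintile and 374 and 349 CPM in the lowest (-0.97 ± 0.04, adjusted p = 6.28e-21). *Pax6os1* had 1.28 and 1.37 CPM in the highest and 2.75 and 2.47 CPM in the lowest (-0.44 ± 0.29, adjusted p = 0.18).

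**Figure D4:**
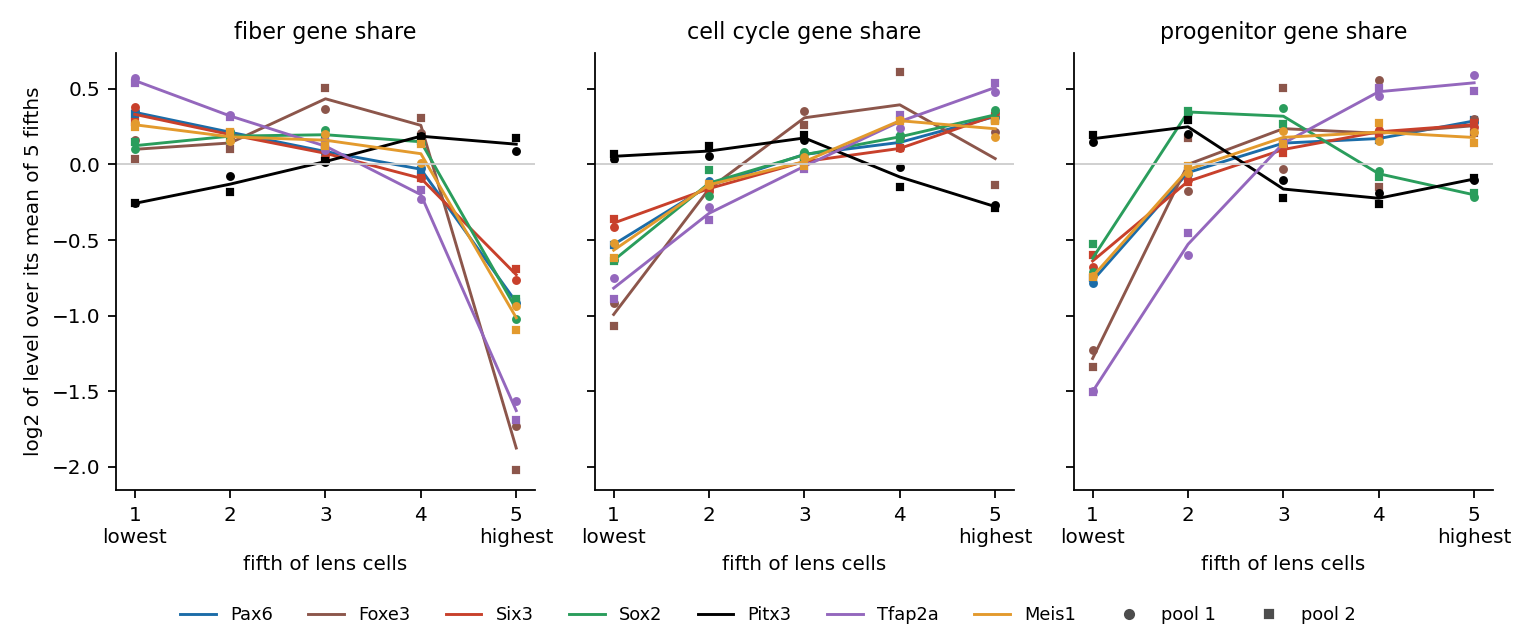
Log2 of the level of each factor over its own mean of the 5 quintiles, in quintiles of lens cells ordered from lowest to highest share of fiber, cell cycle, and progenitor genes. Lines are means of both pools, circles pool 1, and squares pool 2. *Pitx3* (black) is higher in the highest than in the lowest fiber quintile and peaks in cycle quintile 3 before it drops, the other 6 are lower in the highest than in the lowest fiber quintile, and *Sox2* (green) peaks in quintiles 2 and 3 of the progenitor axis.

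The second list holds 39 genes of DNA replication and mitosis. Of the 7, 6 factors were higher in the highest than in the lowest cycle quintile, where 31% of 13059 genes were higher, and *Pitx3* was lower, where 29.3% were lower (edgeR). *Tfap2a* had 86.9 and 95.4 CPM in the highest quintile and 37.1 and 35.6 CPM in the lowest (log2 fold change 1.02 ± 0.06, adjusted p = 6.99e-08). *Sox2* had 153 and 119 CPM in the highest and 76.8 and 62.5 CPM in the lowest (0.66 ± 0.05, adjusted p = 5.74e-07). *Pax6* had 415 and 373 CPM in the highest and 232 and 206 CPM in the lowest (0.55 ± 0.04, adjusted p = 2.94e-07), and *Six3* was higher by 0.41 ± 0.04 (adjusted p = 1.12e-06). These 4 rose at every step from the lowest to the highest quintile in both pools.

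*Pitx3* had 103 and 90.5 CPM in the highest cycle quintile and 128 and 116 CPM in the lowest (-0.63 ± 0.05, adjusted p = 3.93e-07), with its highest levels in the middle quintile (139 and 126 CPM). With scaling by library size alone, which put the median of all genes at 0.32 against 0.01, it was at -0.32, *Pax6* at 0.86, *Six3* at 0.73, and *Meis1* at 0.81. *Foxe3* (0.73 ± 0.22, adjusted p = 0.014) and *Meis1* (0.50 ± 0.08, adjusted p = 0.00011) passed the edgeR test with all UMIs. With cells thinned to 3000 UMIs their log2 fold changes were 0.01 and 0.13 and neither passed (adjusted p = 0.99 and 0.35). The lowest cycle quintile and the fiber axis shared cells, since 48.8% of the cells of the highest fiber quintile lay in it and 0.415% lay in the highest cycle quintile. The gradients are therefore not independent.

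The third list holds 5 genes tied to *Igfbp5*-positive progenitor cells, *Igfbp5*, *R3hdml*, *Slc7a11*, *Folr1*, and *Cntf*. The paper names them from these same data, *R3hdml* as a gene that declines along its inferred differentiation path and the others as progenitor cluster genes. It also names *Tfap2a* among the genes upregulated in that cluster. The *Tfap2a* gradient below is therefore not independent of that result. Of the 7, 5 factors were higher in the highest than in the lowest progenitor quintile, where 32% of 13071 genes were higher, and *Pitx3* was lower, where 29.3% were lower (edgeR). *Tfap2a* had 101 and 98.1 CPM in the highest quintile and 23.7 and 24.6 CPM in the lowest (1.68 ± 0.07, adjusted p = 1.09e-14). *Foxe3* had 4.74 and 5.97 CPM in the highest and 1.64 and 2.04 CPM in the lowest (1.17 ± 0.27, adjusted p = 0.00081). *Pax6* was higher by 0.69 ± 0.04, *Meis1* by 0.55 ± 0.08, and *Six3* by 0.54 ± 0.04, and *Pitx3* was lower with -0.63 ± 0.05. With scaling by library size alone, where the median of all genes was 0.41 against 0.04, *Pax6* was at 1.06, *Meis1* at 0.93, *Six3* at 0.91, and *Pitx3* at -0.26. The lowest progenitor quintile was deeper, with medians of 9085 and 11182 UMIs against 5478 and 6970 in the highest.

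*Sox2* stood apart on this axis. It had 73.8, 153, 157, 118, and 104 CPM in pool 1 and 67.9, 125, 118, 92.6, and 86.0 CPM in pool 2 from the lowest to the highest quintile, with quintiles 2 and 3 the highest in each pool. Its end-to-end log2 fold change was 0.06 ± 0.06 (adjusted p = 0.40). The direction depended on scaling and binning, with 0.43 by library size alone, -0.18 with 3 bins, and -0.28 in cells thinned to 3000 UMIs. *Six3os1* was at the edge of the threshold, with 0.09 ± 0.04 (adjusted p = 0.047). *Sox2ot* had 355 and 339 CPM in the highest quintile and 153 and 146 CPM in the lowest (0.85 ± 0.04, adjusted p = 1.92e-13). Of the cells of the highest fiber quintile, 68.2% lay in the lowest progenitor quintile.

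Relatives and partners of the factors were described from a list of 28 genes, among them relatives of *Six3* and the EYA, MEIS, PBX, SOX, AP-2, and PAX families. In the comparisons of cell types 14 of the 28 passed the filter. Of these, 6 were higher (34.1% of all genes) and 2 lower (28.9%) in lens than in endothelial cells. Their median log2 fold change was 0.71, against 0.11 over all genes. Close relatives of *Tfap2a* and *Meis1* were counted in mural cells. *Tfap2b* had 1 and 0 UMIs in lens cells and 20 and 45 UMIs (38.9 and 64.3 CPM) in mural cells. *Meis3* had 1.62 and 1.56 CPM in lens cells and 42.8 and 32.8 CPM in mural cells. Neither had a UMI in endothelial cells, and both were lower in lens than in mural cells (edgeR, adjusted p = 1.01e-16 and 3.74e-11). Over the 14, 3 were higher (27.8% of all genes) and 5 lower (26.7%) in lens than in mural cells. The median was -0.19 against 0.08.

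Relatives in the lens cells differed widely in level. *Six6*, a relative of *Six3*, had no UMI among the 68684447 and 61075408 UMIs of the lens cells. *Meis2* had 92.2 and 85.4 CPM in lens cells, 4.82 and 6.43 CPM in endothelial cells, and no UMI in mural cells. *Sox1*, a close relative of *Sox2* that is required in lens fibers, had 54.4 and 49.6 CPM in lens cells, 3 and 0 UMIs in endothelial cells, and 1 UMI in the mural cells of each pool. *Sox11* had 14.0 and 14.7 CPM in lens cells, 75.8 and 77.2 CPM in endothelial cells, and 46.6 and 22.8 CPM in mural cells, lower in lens than in endothelial cells by -2.10 ± 0.19 (edgeR, adjusted p = 5.72e-11). Along the fiber axis, 18 were tested. Of these, 7 were higher (35.2% of all genes) and 8 lower (34.5%) in the highest quintile, with a median of -0.12 against 0.00. *Sox11* was lower by -2.58 ± 0.14 and *Pbx3* by -0.94 ± 0.07, while *Sox1* was higher by 0.47 ± 0.07, which became 0.07 with scaling by library size alone, and *Meis2* by 0.30 ± 0.05, which turned to -0.10 in that scaling. Along the cycle axis 6 were higher (31% of all genes) and 4 lower (29.3%), with a median of 0.12 against 0.01. Along the progenitor axis 8 were higher (32%) and 8 lower (29.3%), with a median of -0.17 against 0.04. Among the lower along the cycle axis, *Eya1* (-0.24), *Meis2* (-0.20), and *Pbx2* (-0.22) turned to 0.07, 0.11, and 0.09 with scaling by library size alone. *Meis2* and *Pbx2* also turned along the progenitor axis, from -0.15 and -0.18 to 0.22 and 0.19. None of the 6 higher along the cycle axis turned. In cells thinned to 3000 UMIs, *Eya3* and *Six4* among these 6 did not pass (edgeR, adjusted p = 0.23 and 0.30). Among the lower, *Eya1*, *Meis2*, and *Pbx2* did not pass (0.26, 0.89, and 0.36). Along the progenitor axis *Six4*, *Six5*, *Meis3*, *Pknox2*, *Sox11*, *Sox3*, *Meis2*, and *Pbx2* lost their calls in thinned cells (0.065 or more). Along the fiber axis *Eya4*, *Six5*, *Pknox2*, and *Dach1* did (0.11 or more).

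A second list held 7 genes known to act downstream of or beside these factors in the lens. In lens over endothelial cells 6 of the 7 were tested and all 6 were higher (34.1% of all genes). Their median log2 fold change was 5.36, against 0.11 over all genes. In lens over mural cells all 6 tested were higher too (27.8% of all genes, median 4.65 against 0.08). *Prox1*, a homeobox gene of fiber differentiation and of lymphatic endothelium, had 419 and 412 CPM in lens cells, 7 and 8 UMIs in endothelial cells, and 12 and 13 UMIs in mural cells. *Maf*, which drives crystallin genes, had 563 and 545 CPM in lens cells, 14.5 and 20.4 CPM in endothelial cells, 36.9 and 28.6 CPM in mural cells, and 1222 and 1308 CPM in macrophages. In endothelial over mural cells 1 was higher (16.7% of all genes), *Cdh2*, the gene of N-cadherin, and 2 were lower (19.2%). The median was -0.52 against 0.01.

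Along the fiber axis these genes were divided. *Maf* (log2 fold change 2.80 ± 0.05), *Prox1* (1.19 ± 0.04), *Cdh2* (0.89 ± 0.04), and *Hsf4*, a heat shock factor of the lens (6.58 ± 0.21), were higher in the highest fiber quintile, and *Cdh1*, the gene of E-cadherin (-1.40 ± 0.06), and *Pdgfra*, the receptor for epithelial growth signals (-0.82 ± 0.06), were lower. In edgeR all 6 had an adjusted p of 2.91e-15 or less, and none changed direction with scaling by library size alone. The other gene of the list, *Mab21l1*, did not pass (-0.09 ± 0.06, edgeR, adjusted p = 0.23). The median of all 7 was 0.89 against 0.00, where 35.2% of all genes were higher and 34.5% lower. *Pitx3* thus moved with the genes of the list that were higher, and the other 6 factors with *Cdh1* and *Pdgfra*. Along the cycle axis 2 of the 7 were higher and 4 lower, where 31% and 29.3% of all genes were. Along the progenitor axis 3 were higher and 4 lower, where 32% and 29.3% were. The medians were -0.65 against 0.01 and -0.86 against 0.04. The 2 higher along the cycle axis, *Cdh1* (0.38) and *Pdgfra* (0.33), did not pass in cells thinned to 3000 UMIs. They were at -0.04 and 0.10 there (edgeR, adjusted p = 0.72 and 0.29), while the 4 lower genes kept their direction and call.

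Genes with patterns most like each factor were sought over 16 profiles, the 5 fiber quintiles of lens cells and the endothelial, mural, and macrophage cells of 2 pools, among 5444 genes with 50 CPM or more in a class. Pearson's r of log2(CPM + 10) is given as a description, since profiles of a pool share a library and most of the range is lens against vessel. *Six3* was most like *Limch1* (r = 0.980) and *Six3os1* (r = 0.98). *Limch1* had 183 CPM in lens cells as a mean of the quintiles, 279 CPM in endothelial cells, and 9.14 CPM in mural cells. *Pitx3* was most like *Gja3* and *Espn* (r = 0.998 and 0.997), *Gja3* being a fiber connexin, and *Sox2* like *Aldh1a1*, a retinal dehydrogenase, and *Slit3* (0.998 and 0.997). *Pax6* was most like *Sema3a* and *Tceal3* (0.995 and 0.994), *Tfap2a* like *Islr* (0.996) and *Car14* (0.994), and *Meis1* like *Dapl1* and *Fez1* (0.990 and 0.989). *Foxe3* was most like *Timm9* and *Tma7* (0.965 and 0.961), at levels below the 10 CPM added.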

How the data were processed

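The 2 pools of P2 lens epithelium were measured with 10x Genomics 3′ v3.1 chemistry. The authors counted UMIs with Cell Ranger 6.1.1 on mm10 and deposited filtered tables of raw counts per gene and barcode. The counts were read in Python 3.11.15 (scanpy 1.11.5, NumPy 2.4.6, SciPy 1.17.1, pandas 2.3.3; figures with matplotlib 3.10.9). Limits were set at percentiles 2 and 97 of detected genes and of UMIs and at 15% mitochondrial UMIs, after which the top 8% by Scrublet score was removed per pool as doublets. Cells were gated by markers and their UMIs summed per pool and class.

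The sums went into edgeR 4.0.16 (R 4.3.3), with its low-count filter and TMM scaling, the pool as a block, and the quasi-likelihood test with Benjamini-Hochberg adjustment at 0.05. The procedure was also run on simulated counts with the same spread for all genes and no pool effect. That setting differs from these sums, so the run does not give their error rate. DESeq2 1.42.0, scaling by library size alone, other filters, gates, bins, and depths, and leaving out each pool were alternatives. With the pool as a block, a p-value rests on how far differences between classes or quintiles varied between the 2 libraries of pooled pups. That spread was estimated from all classes or quintiles of a fit together, macrophages included, and not from the 2 compared alone. The members, lists, and tests were chosen with earlier results of these data known. Named genes were the 7 members, 3 overlapping transcripts, the 2 genes most like each member, and some genes of each list. *Six6*, *Eya1*, *Pbx2*, and relatives whose calls were lost in thinned cells were named after their values were seen. Some genes of the lists are not reported here by name.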

Additional observations from a re-analysis of the deposited data

How the results depend on the processing

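With the 7 factors over all 6 comparisons, 374 of 387 values under alternative settings kept their side of the threshold and were not scored as reversed. A reversal was scored only where the main or the alternative value was called. Those of the factors were *Sox2* along the progenitor axis, with -0.18 in 3 bins and -0.28 in cells thinned to 3000 UMIs. In endothelial over mural cells, values that were not called changed direction too. *Meis1* went from 5.50 to as low as -1.49 and *Pitx3* from 0.49 to as low as -1.23. *Sox2* went from -6.63 to as high as 2.64 and *Tfap2a* from -1.36 to as high as 6.95. *Six3os1* turned to -0.31 along the fiber axis with scaling by library size alone and to -0.0023 along the progenitor axis with all barcodes that passed a gate. Calls were lost with DESeq2 for *Six3* and *Sox2* in lens over endothelial cells, *Sox2* in lens over mural cells, and *Foxe3* along the cycle axis, with thinned cells for *Foxe3* and *Meis1* along the cycle axis, and without the pool as a block for *Foxe3* along the cycle axis (adjusted p = 0.10). *Six3os1*, at the edge of the threshold along the progenitor axis, lost its call under 6 other settings. With no upper limit on alpha crystallins, *Pax6* and *Sox2* were lower in endothelial than in mural cells (edgeR, adjusted p = 0.00062 and 0.00045). The cause was not tested.

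Counts of called genes moved by over 1.5 times in 5 cases. With alpha crystallins under 0.2%, which left fewer cells, 2068 against 5315 genes were called in lens over mural cells and 1300 against 3499 in endothelial over mural cells. Along the cycle axis DESeq2 called 5031 and thinned cells 4802, against 7878, and along the progenitor axis thinned cells called 4815, against 8008. Scaling by library size alone gave 2274 higher and 3764 lower in lens over endothelial cells, against 3325 and 2815, and 2007 and 3133 in lens over mural cells, against 2711 and 2604. It gave 6648 and 1894 along the cycle axis, against 4046 and 3832, and 7771 and 1591 along the progenitor axis, against 4182 and 3826.

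*Six3* in endothelial cells stood at 172% to 204% of its lens level with either pool left out and at 214% with all barcodes that passed a gate, against 186%. At 3000 UMIs per cell it was seen in 79.0% of endothelial and 55.1% of lens cells, against 59.7% and 41.6% at 2000. Leaving out a pool leaves no spread to test, so no count of called genes was made without one, and no called value of a factor or partner then changed direction. Genes with under 10 UMIs in vessel cells, all factors but *Pax6* and *Six3* among them, are limited by depth there.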
